A study of Mus musculus with 2 samples.

Results

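The integrin and laminin subunit genes were examined in mouse cavernous endothelial cells (MCECs) kept in high glucose. They were taken by symbol alone, as Itga or Itgb followed by a number or letters, or Lama, Lamb or Lamc followed by a number. Of 23183 symbols in the files, 38 met this rule, 27 integrin subunits (18 alpha and 9 beta) and 11 laminin chains. RNA of the cultures was sequenced as 1 library per condition. The HG+HBS cells received high glucose (HG) with the buffer vehicle HBS. The HG+PC-NVs cells received high glucose with PC-NVs, vesicle-mimetic particles that are extruded from mouse cavernous pericytes grown in culture. Both libraries share the high glucose, the primary culture from the penis of male C57BL/6J mice and the culture medium. The labels give 5 days of glucose, while the methods of the study describe a shorter exposure, with PC-NVs present for the last part of it. No library without high glucose was analysed here.

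The values are normalized FPKM, that is, fragments per kilobase of transcript scaled to the size of the library, so that levels of different genes can be compared. The rows of a symbol were summed as FPKM. There were no replicate libraries, so no difference was tested and no p-value is given. A member was called higher or lower when its FPKM + 1 differed by at least 1.5-fold between the libraries. This is a difference of at least 0.585 in log2(FPKM + 1), and the log2 ratios given here are such differences. Calls were made over members with at least 1 FPKM in either library. Ratios of FPKM have a 95% exact (Clopper-Pearson) interval that covers counting error only, from fragments estimated at roughly 13300000 for HG+HBS and 11600000 for the HG+PC-NVs library. The labelled cell type was checked against its markers. Of 12 endothelial markers, 3 were at 1 FPKM or more in both libraries (Cdh5, Esam and Egfl7) and 8 were below 1 FPKM in both. Pecam1 was at 1.05 FPKM with HBS and 0.938 FPKM with PC-NVs, and Cdh5 at 5.05 and 5.73 FPKM. All 6 fibroblast markers were between 36.3 and 1283 FPKM, and all 8 myeloid markers were at 1 FPKM or more in both libraries. Of 8 pericyte markers, 7 were at this level in both libraries, as were 2 of 5 smooth muscle, 1 of 6 epithelial and 1 of 4 Schwann cell markers. The cultures are therefore called here by their label only. In bulk RNA, fewer cells of a type and less RNA per cell cannot be told apart.

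Integrins are cell-surface receptors made of an alpha and a beta subunit, which together decide which ligand is bound and link the matrix outside to talin and the actin cytoskeleton inside. Laminins are cross-shaped proteins of the basement membrane, each assembled from an alpha, a beta and a gamma chain. In blood vessels, endothelial cells and mural cells rest on a laminin network that is built mainly with the alpha chains of Lama4 and Lama5, and hold on to it through laminin-binding integrins.

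Of the 38 members, 24 reached 1 FPKM in at least one library, 19 integrin subunits and 5 laminin chains. Among the integrin subunits, 4 of 19 were higher in HG+PC-NVs (Itga2, Itgal, Itgb7 and Itgb8) and 1 was lower (Itgax). Among all 12109 symbols at this level, 5.67% were higher and 3.82% were lower. Among the laminin chains, 0 of 5 were higher and 1 was lower (Lama2). The median log2 ratio was 0.12 over the integrin subunits and -0.06 over the laminin chains, beside -0.01 over all symbols. Of the 10 members at 10 FPKM or more in either library only Itga2 was called, and the other 5 called members stayed under 10 FPKM in both.

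**Figure D1:**
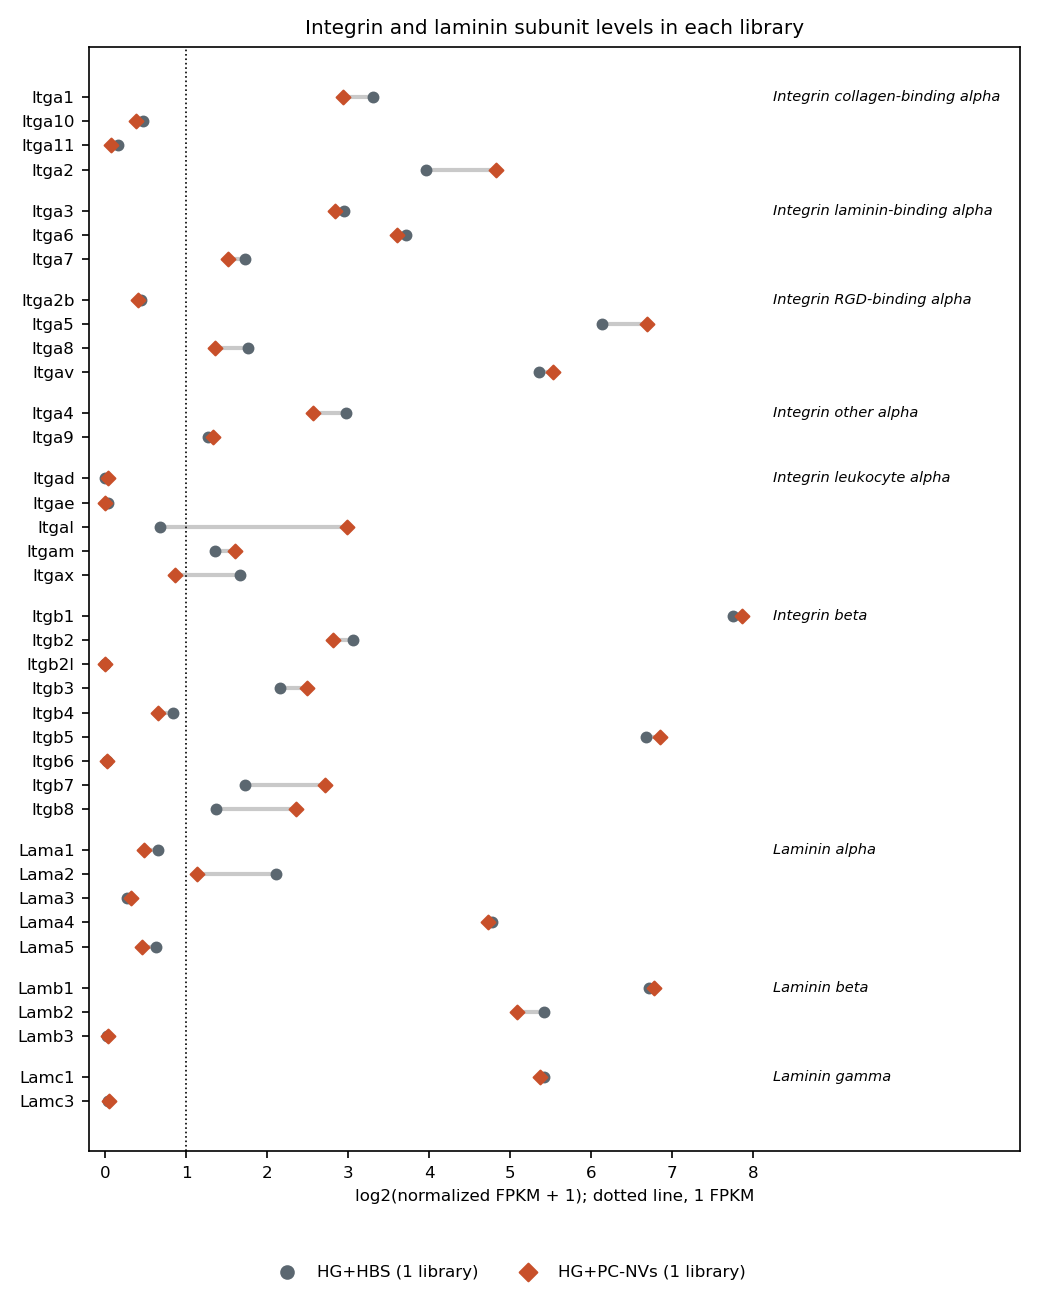
Level of 37 of the 38 members as log2(normalized FPKM + 1) on the x axis, with 1 library per condition (circles, HG+HBS, diamonds, HG+PC-NVs), grouped by class. Itgb1, Itgb5, Lamb1 and Itga5 lie at the right with short or moderate gaps, and the widest gap is that of Itgal, from 0.603 to 6.94 FPKM.

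For Itga2, the most abundant called integrin subunit, for Lama2, the called laminin chain, and for Itga5, the most abundant alpha subunit, the 250 bases before the annotated start are shown, from RefSeq on GRCm38.p6, 5′ to 3′ on the strand of the gene. Capitals mark the GC box GGGCGG on either strand, the only motif searched that was present in these windows.
Itga2 (chr13:114932101-114932350, reverse strand): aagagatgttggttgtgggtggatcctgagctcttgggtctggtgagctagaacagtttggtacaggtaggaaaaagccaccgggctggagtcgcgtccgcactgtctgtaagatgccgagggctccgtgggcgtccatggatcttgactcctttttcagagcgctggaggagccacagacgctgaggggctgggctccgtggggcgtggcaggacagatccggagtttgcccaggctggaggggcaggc
Itga5 (chr15:103366792-103367041, reverse strand): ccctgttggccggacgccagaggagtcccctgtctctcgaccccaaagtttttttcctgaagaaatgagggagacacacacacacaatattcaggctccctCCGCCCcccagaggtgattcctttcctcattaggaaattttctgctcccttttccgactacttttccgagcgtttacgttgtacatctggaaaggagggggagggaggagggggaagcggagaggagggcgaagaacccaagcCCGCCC
Lama2 (chr10:27616943-27617192, reverse strand): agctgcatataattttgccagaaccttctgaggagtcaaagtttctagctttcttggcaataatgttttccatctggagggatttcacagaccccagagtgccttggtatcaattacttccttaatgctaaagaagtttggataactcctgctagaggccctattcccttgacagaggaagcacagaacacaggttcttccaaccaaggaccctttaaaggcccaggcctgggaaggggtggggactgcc
The Lama2 window lies within the longer gene model of GENCODE M21, before the RefSeq start. The promoter table held 24 of the 38 members, with 27 starts. The GC box was in 33.3% of these 27 windows and in 32.7% of all 32851 windows, and in the windows shown only that of Itga5 held it, at 2 places. The AP-1 motif TGANTCA was in 1 of the 27 windows, that of Itgax, against 6.75% of all windows. The NF-kB motif was in 1 window, that of Lamb3, against 7.25%, and TATAAA was in 0 windows, against 12.4%. Motifs were searched on both strands, and no match says only that these letters are not in the window.

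The beta subunits set which families of receptor a cell can build. Itgb1, which pairs with most of the alpha subunits measured here, had the highest level of the members, at 214 FPKM with HBS and 233 FPKM with PC-NVs. It ranked 335 and 346 among all symbols. Its FPKM ratio was 1.09 (1.06 to 1.12), and its log2 ratio was 0.12 as deposited but -0.06 after quantile normalization between the libraries, so its direction depends on the scaling. Itgb5, a partner of Itgav in vitronectin receptors, was at 101 and 114 FPKM, a ratio of 1.13 (1.08 to 1.18). Both libraries thus held the same order of beta subunits at the top. Itgb1 made up 64.8% of the summed beta subunit FPKM with HBS and 63.3% with PC-NVs, and Itgb5 30.6% and 31.1%. Itgb3, the other well-known vitronectin receptor beta subunit, was far lower, at 3.46 and 4.64 FPKM, with a ratio of 1.34 (1.14 to 1.59).

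Itgb8 pairs with Itgav in a receptor that binds latent TGF-beta. It was at 1.58 FPKM with HBS and 4.12 FPKM with PC-NVs, from roughly 176 and 402 fragments. Its log2 ratio was 0.99, and its FPKM ratio was 2.62 (2.19 to 3.14). In GENCODE M21 (GRCm38) the gene spans 119158022 to 119238802 of chromosome 12, on the reverse strand. Its partner Itgav was near level in comparison, at 40.1 and 45.1 FPKM. Of the beta subunits that pair with Itgav other than Itgb1, Itgb8 made up 1.48% of the summed FPKM with HBS and 3.35% with PC-NVs, and Itgb5 95.2% and 92.9%. Itgb6, the epithelial partner of Itgav, was at most 0.0172 FPKM.

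Itgb7, a beta subunit of lymphocytes that pairs with Itga4 or Itgae, was at 2.31 FPKM with HBS and 5.57 FPKM with PC-NVs, from roughly 82.5 and 173 fragments. The FPKM ratio was 2.41 (1.85 to 3.18) and the log2 ratio 0.99. It lies on chromosome 15, from 102215995 to 102231944. Neither of its partners was called higher. Itga4 was at 6.85 and 4.93 FPKM, a ratio of 0.719 (0.645 to 0.800), and Itgae was at 0.0190 FPKM in HG+HBS and listed at 0 in HG+PC-NVs, with less than 1 fragment in either library.

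Among the collagen-binding alpha subunits, Itga2 and Itga1 went in opposite directions. Itga2, the receptor for fibrillar collagen, was at 14.5 FPKM with HBS and 27.3 FPKM with PC-NVs, from roughly 1373 and 2254 fragments. Its FPKM ratio was 1.88 (1.76 to 2.01), with a log2 ratio of 0.87. It was the only called member above 10 FPKM. Itga1, which prefers the type IV collagen of basement membranes, was at 8.93 and 6.65 FPKM, a ratio of 0.745 (0.682 to 0.813) and a log2 ratio of -0.38, within the threshold. The 2 genes are neighbours on chromosome 13, Itga2 from 114833081 to 114932100 and Itga1 from 114953096 to 115101964. Pelo, which lies within Itga1 on the same strand, was at 9.36 and 10.2 FPKM, and its reads may be hard to tell from those of Itga1. Itga10 and Itga11 stayed at or below 0.380 FPKM.

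The alpha subunits that recognise the RGD motif of fibronectin and vitronectin were the most abundant class. Itga5, the fibronectin receptor alpha subunit of angiogenic vessels, was at 69.4 FPKM with HBS and 102 FPKM with PC-NVs. Its FPKM ratio was 1.48 (1.42 to 1.54), and its log2 ratio of 0.55 fell just short of the threshold of 0.585. It was 0.47 after quantile normalization. Itga5 made up 40.8% of the summed alpha subunit FPKM with HBS and 46.7% with PC-NVs, while Itgav made up 23.6% and 20.6%. Itga8, an alpha subunit of mesenchymal and smooth muscle cells, was at 2.40 and 1.55 FPKM, a ratio of 0.646 (0.502 to 0.824). With 1 FPKM added to both values, its log2 ratio was -0.41, within the threshold. Itga2b, the platelet alpha subunit, was at 0.358 and 0.318 FPKM.

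The laminin-binding alpha subunits Itga3, Itga6 and Itga7 were all slightly lower, with log2 ratios from -0.22 to -0.11, and the counting interval of each included 1. Itga6 was at 12.1 FPKM with HBS and 11.1 FPKM with PC-NVs. Itga3 was at 6.70 and 6.12 FPKM. Itga7, best known from muscle, was at 2.31 and 1.85 FPKM. Itgb4, which joins Itga6 in the hemidesmosomes of epithelia, was under 1 FPKM, at 0.779 and 0.565. Itga9 was at 1.40 and 1.52 FPKM. These log2 ratios were smaller in size than those of the collagen receptor subunit Itga2 and the fibronectin receptor subunit Itga5, but the difference could not be tested.

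**Figure D2:**
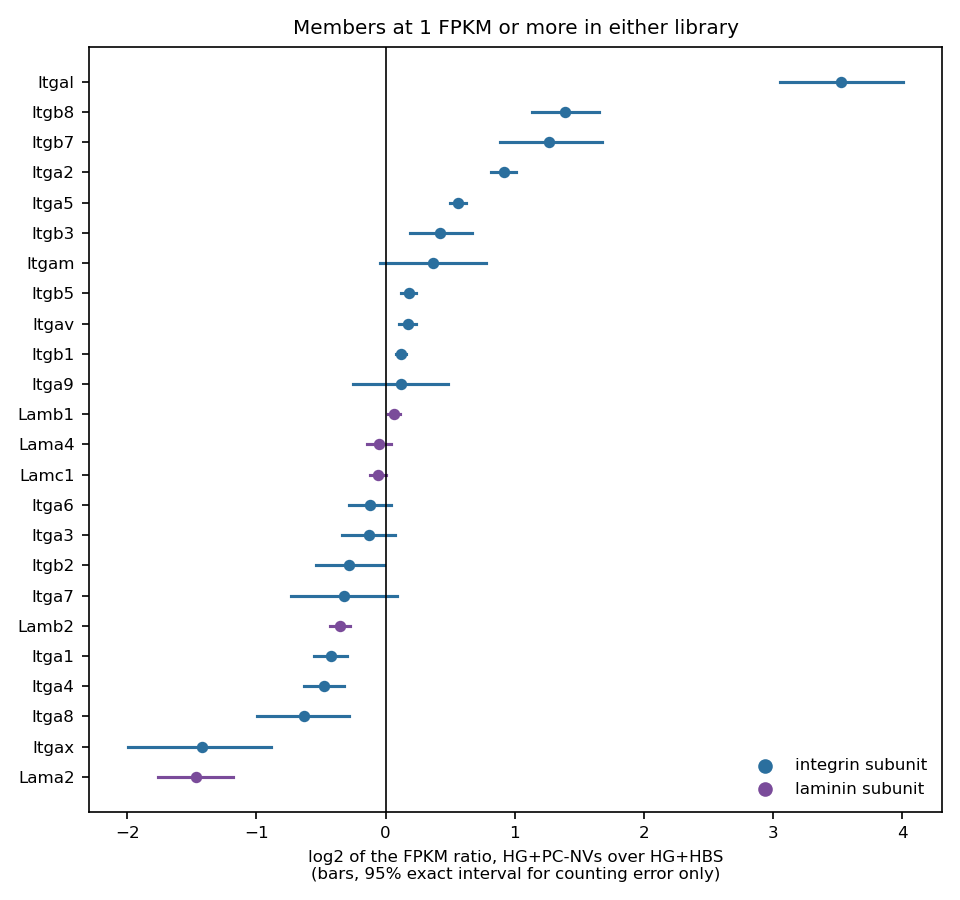
The log2 of the FPKM ratio, HG+PC-NVs over HG+HBS, on the x axis for the 24 members at 1 FPKM or more in either library, with bars for the 95% exact interval of counting error only. Itgal lies farthest to the right and Itgax and Lama2 farthest to the left. The intervals of 17 of the 24 members exclude equal levels, among them those of Itgb1 and Lamb1, whose log2 ratios changed sign after quantile normalization. The share of all symbols with such intervals is not given here, so the count is not a result about the members.

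The leukocyte integrin subunits were low in both libraries and did not move together. Itgal, which pairs with Itgb2 and binds the ICAM proteins, was at 0.603 FPKM with HBS and 6.94 FPKM with PC-NVs, from roughly 41.6 and 418 fragments. Its log2 ratio of 2.31 and FPKM ratio of 11.5 (8.29 to 16.1) were the largest of the 24 members. It spans 127296260 to 127335138 of chromosome 7, on the forward strand. Itgb2, its sole beta partner, was at 7.33 and 6.03 FPKM. Itgam was at 1.56 and 2.02 FPKM, with a ratio of 1.29 (0.971 to 1.71). Itgax was at 2.17 FPKM with HBS and 0.808 FPKM with PC-NVs, from roughly 117 and 37.9 fragments. It was 2.68-fold (1.85 to 3.98) higher in HG+HBS, with a log2 ratio of -0.81. Itgad, at most 0.0210 FPKM, and Itgb2l, with no fragment in either library, were not detectable at this depth. Among the alpha subunits that pair with Itgb2, the share of Itgal in the summed FPKM was 13.9% with HBS and 70.9% with PC-NVs.

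Markers of myeloid cells are given beside these values. Their summed level was 327 FPKM with HBS and 326 FPKM with PC-NVs. Of the 8, 1 was called higher and 0 lower, or 12.5% and 0% beside 5.67% and 3.82% of all symbols. The higher one was the macrophage marker Adgre1, at 7.44 and 42.5 FPKM. The log2 ratio was above 0 for 3 of the 8 and below 0 for 5, with a median of -0.13. The lysozyme gene Lyz2 made up most of the sum, at 212 and 193 FPKM. Cd68 was at 36.2 and 26.3 FPKM, a ratio of 0.728 (0.638 to 0.830), and Ctss at 31.2 and 25.3 FPKM, a ratio of 0.812 (0.712 to 0.925). The pan-leukocyte marker Ptprc was at 1.44 and 1.67 FPKM, a ratio of 1.16 (0.856 to 1.57). Of 4 platelet markers, Gp9 and Ppbp were at or near 0 and Pf4 was at 5.93 and 2.88 FPKM, and the summed level was 6.64 and 3.40 FPKM. The part of leukocytes in the levels of Itgal, Itgb7 and Itgax was not tested.

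**Figure D3:**
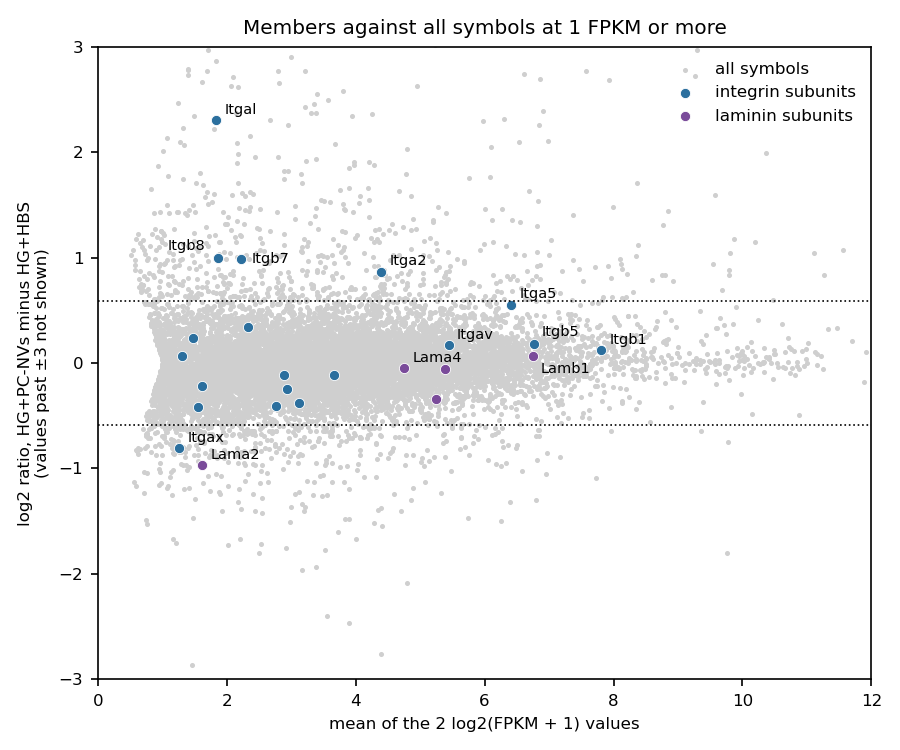
Log2 ratio of log2(FPKM + 1), HG+PC-NVs minus HG+HBS, on the y axis against the mean of both values on the x axis, for 12109 symbols at 1 FPKM or more in either library (grey) and the 24 members among them (blue, integrin, purple, laminin), with dotted lines at 1.5-fold. The members above the upper line are Itgal, Itgb8, Itgb7 and Itga2, those below the lower line are Itgax and Lama2, and Itga5 lies just under the upper line.

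Lamb1, Lamc1 and Lama4 differed little between the libraries, Lamb2 was lower with PC-NVs but within the threshold, and Lama2 was called lower. Lamb1 was at 104 FPKM with HBS and 109 FPKM with PC-NVs, Lamc1 at 41.9 and 40.2 FPKM, and Lama4 at 26.4 and 25.5 FPKM. These 3 genes encode one chain of each kind, and their FPKM ratios were 1.05 (1.01 to 1.08) for Lamb1, 0.960 (0.917 to 1.00) for Lamc1 and 0.964 (0.905 to 1.03) for Lama4. The log2 ratio of Lamb1 was 0.06 as deposited and -0.01 after quantile normalization. Lamb2, the alternative beta chain, was at 41.9 and 32.9 FPKM, a ratio of 0.783 (0.741 to 0.828), and its share of the summed beta chain FPKM was 28.7% and 23.2%. Lamc3, another gamma chain, was at 0.0239 and 0.0276 FPKM.

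Lama2, the alpha chain of muscle and of the mesenchymal basement membrane, was at 3.29 FPKM with HBS and 1.19 FPKM with PC-NVs, from roughly 421 and 133 fragments. It was 2.77-fold (2.27 to 3.38) higher in HG+HBS, with a log2 ratio of -0.97. It spans 26980036 to 27619758 of chromosome 10, on the reverse strand. Its share of the summed alpha chain FPKM was 10.6% with HBS and 4.30% with PC-NVs, while that of Lama4 was 85.1% and 92.0%. Lama5, the other main vascular alpha chain, was at 0.541 and 0.368 FPKM, a ratio of 0.681 (0.471 to 0.988) from roughly 81.9 and 48.7 fragments. Lama1 was at 0.569 and 0.391 FPKM and Lama3 at 0.208 and 0.250 FPKM. Both libraries held the smooth muscle markers Acta2, at 27.6 and 8.02 FPKM, and Tagln, at 17.3 and 7.34 FPKM. Des, at 1.07 and 0.137 FPKM, reached 1 FPKM only in HG+HBS. Acta2, Tagln and Des were all called lower, beside 3.82% of all symbols. The other markers on the list were under 1 FPKM in both libraries. Cnn1 was at 0.722 and 0.221 FPKM. Myh11 was at 0.0108 and 0.0122 FPKM, with less than 1 fragment in either library. The summed level over the 5 smooth muscle markers on the list was 46.7 FPKM with HBS and 15.7 FPKM with PC-NVs. Whether the cultures held smooth muscle cells, and what part such cells had in the level of Lama2, was not tested.

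Of the members, 10 had more than 1 row in the files, which give no transcript names. All 4 rows of Itgal were higher in HG+PC-NVs. They were at 0.000469, 0.000796, 0.199 and 0.403 FPKM in HG+HBS and, in the same order, at 0.802, 1.16, 2.04 and 2.94 FPKM in HG+PC-NVs. With the highest row alone, the log2 ratio of Itgal was 1.49. The rows of Itga6 crossed, with one at 6.92 FPKM with HBS and 4.23 FPKM with PC-NVs and the other at 5.21 and 6.91 FPKM. The minor row of Itgb5 was at 0.443 and 2.35 FPKM, beside a main row at 101 and 112 FPKM. In 2 minor rows of Itga3 the signal changed places, from 0.305 FPKM to nearly 0 in one and from nearly 0 to 0.273 FPKM in the other. How reads were divided between the rows of a gene rests on the authors' estimate. Itga2, Itgal, Itgax, Itgb7 and Itgb8 overlap no other gene in GENCODE M21, and Lama2 overlaps only non-coding genes and pseudogenes.

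**Figure D4:**
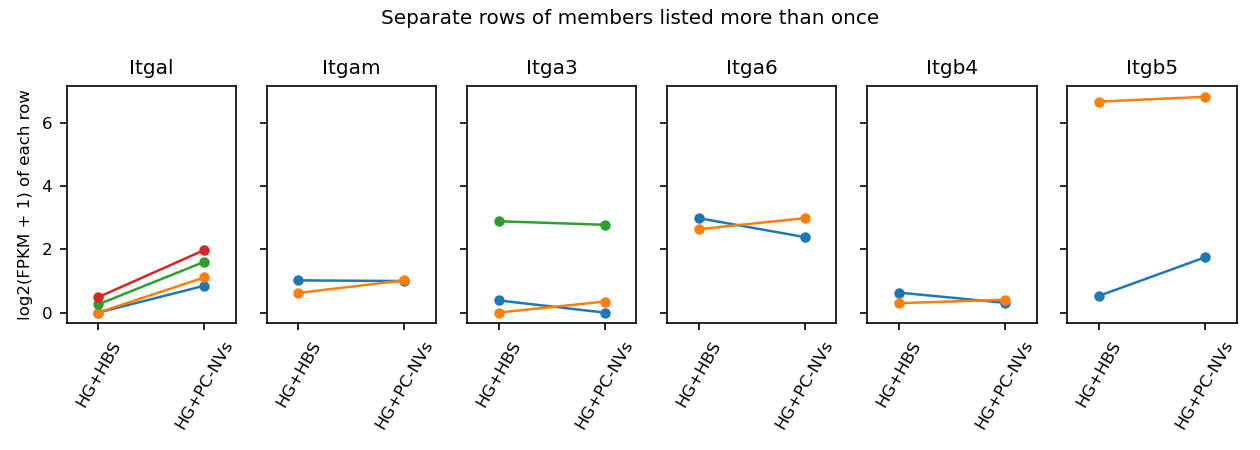
Level of each separate row, as log2(FPKM + 1) on the y axis, in both libraries on the x axis for 6 members listed more than once, with a line per row. All 4 lines of Itgal go up, the lines of Itga6 cross, and the upper line of Itgb5 is nearly flat.

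Genes that work with the subunits were taken from lists of known partners. Of 21 genes of integrin adhesion adaptors and regulators, 19 reached 1 FPKM. Of these 19, 0 were higher and 1 was lower, or 0% and 5.26% beside 5.67% and 3.82% of all symbols. With so few genes, these shares are a description and were not tested. The median log2 ratio of the 19 was -0.11. The lower one was Vcl, which encodes vinculin, at 49.4 FPKM with HBS and 26.2 FPKM with PC-NVs, a ratio of 0.530 (0.499 to 0.563). Tln1, the talin that activates integrins, was at 99.1 and 81.9 FPKM, Ilk at 119 and 95.7 FPKM, and the kindlin gene Fermt2 at 29.8 and 31.4 FPKM. The focal adhesion kinase gene Ptk2 was at 15.3 and 16.7 FPKM.

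Among the basement membrane partners of laminin, 1 gene was higher with PC-NVs and 3 were lower. All 11 reached 1 FPKM in at least one library, so these were 9.09% and 27.3% of the list, beside 5.67% and 3.82% of all symbols, and the median log2 ratio was -0.28. With so few genes and 1 library per condition, the shares are a description and were not tested. Col4a2, a chain of the type IV collagen network, was at 54.3 and 35.6 FPKM, with a log2 ratio of -0.60, and its partner chain Col4a1 at 88.9 and 60.8 FPKM, with -0.54, just within the threshold. Col15a1 was at 4.46 and 1.59 FPKM, with -1.07, and Col4a5 at 1.24 and 0.481 FPKM, with -0.60. Agrn, which encodes agrin and binds laminin, was higher, at 16.6 and 26.8 FPKM, with a log2 ratio of 0.66. Nid1, the linker between laminin and type IV collagen, was at 226 and 202 FPKM, and the perlecan gene Hspg2 at 68.0 FPKM in both.

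Of 6 genes outside the integrin family whose products bind laminin or act with its receptors, 1 was higher and 0 were lower. These were 16.7% and 0%, beside 5.67% and 3.82% of all symbols. The higher one was the syndecan gene Sdc1, at 77.4 and 121 FPKM with a log2 ratio of 0.64. The dystroglycan gene Dag1 was at 40.8 and 43.2 FPKM and Bcam at 32.2 and 36.3 FPKM. Among 20 integrin ligand genes, 18 reached 1 FPKM, of which 2 were higher and 2 were lower, 11.1% in each direction beside those 5.67% and 3.82%. Vcam1, a ligand of the receptor made by Itga4 and Itgb1, was at 82.4 and 147 FPKM, with a log2 ratio of 0.83, and Tnc, which encodes tenascin-C, at 106 and 169 FPKM, with 0.67. Ctgf was lower, at 13.8 and 4.75 FPKM, with -1.37, as was Col1a2, at 312 and 198 FPKM, with -0.65. Fn1, the fibronectin bound by the product of Itga5, was at 1344 and 964 FPKM, with -0.48, while Itga5 itself had a log2 ratio of 0.55. Spp1, the RGD ligand osteopontin, was at 15551 and 16778 FPKM.

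**Figure D5:**
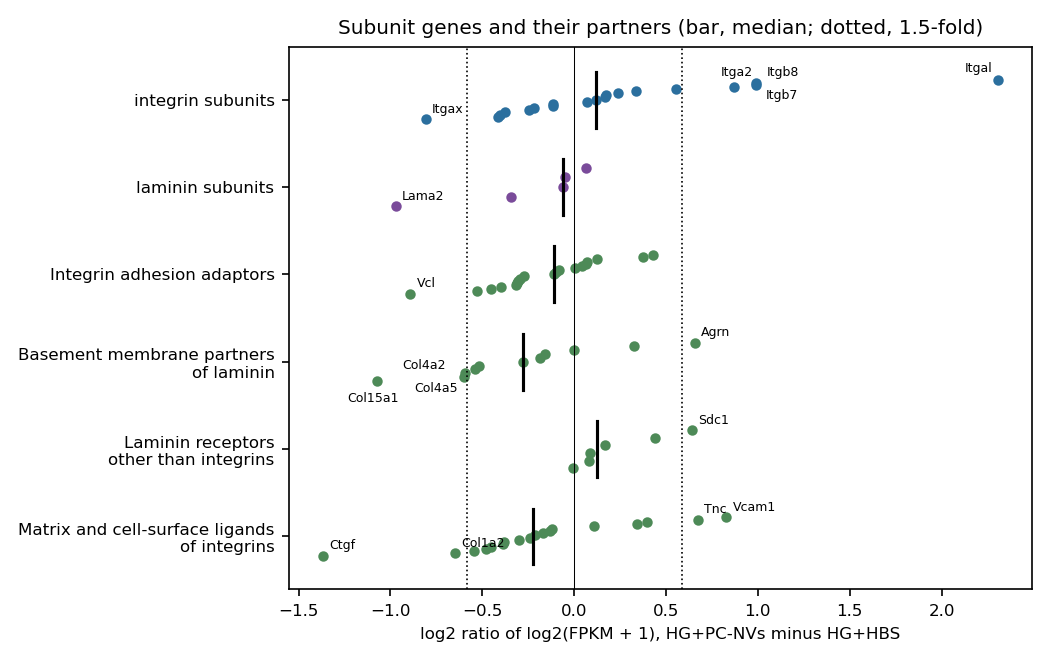
Log2 ratio of log2(FPKM + 1), HG+PC-NVs minus HG+HBS, on the x axis, for the members and 4 lists of partner genes at 1 FPKM or more in either library (points, genes, bars, medians, dotted lines, 1.5-fold). Integrin subunits have a median of 0.12 and spread widest, while basement membrane partners have a median of -0.28, with Col15a1 at -1.07 and Agrn at 0.66.

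The members below 1 FPKM in both libraries numbered 14, of which 8 were integrin subunits and 6 laminin chains, and the highest value among them was 0.779 FPKM, that of Itgb4. Among the 13 integrin subunits whose higher level was 1 to 10 FPKM, 3 were called higher and 1 lower, against 5.61% and 4.95% of the 5399 symbols in that range. Among the 6 at 10 FPKM or more, 1 was higher and 0 were lower, against 5.72% and 2.91% of 6710 symbols.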

How the data were processed

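RNA of MCECs was sequenced as 1 library per condition. After trimming, the authors mapped the reads to mm10 with TopHat. The authors took read counts from BEDTools and FPKM from Cufflinks, and the authors normalized them with edgeR, a step that the methods name quantile normalization. Versions and annotation are not given in the sources used here. The values the authors deposited are log2(normalized FPKM + 1) for 33299 rows per library, read as log2 from their range. Here rows were converted to FPKM and summed per symbol, then compared on the log2(FPKM + 1) scale, with a pseudocount of 1 FPKM, as deposited. Whether counting used strand is not stated. No test was run.

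Fragments were estimated from the lowest frequent value of FPKM times transcript length over 2195 genes with 1 annotated transcript longer than 1500 nt. A further peak lay at 1.97 (HG+HBS) and 2.02 (HG+PC-NVs) times that value, so the totals are approximate. Fragments per gene used the principal transcript length of GENCODE M21 on GRCm38, the build named mm10. Itgb2l and other members under 3 fragments have no fold. The values of 1 member are not reported here.

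The members and lists were chosen with earlier results of these data known. Every member at 1 FPKM or more in either library is named, with list genes past the threshold, up to 4 a list, and genes the lists turn on. The calculation was checked on simulated data. Alternatives covered normalization, pseudocount, low values, row sums and fold threshold. Calculations ran in Python 3.11.15 with scipy 1.17.1, pandas 2.3.3 and numpy 2.4.6, and plots in matplotlib 3.10.9.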

Additional observations from a re-analysis of the deposited data

How the results depend on the processing

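Itga2, Itgal, Itgb7 and Itgb8 were called higher, and Lama2 lower, under quantile normalization, median centring, upper-quartile scaling and a pseudocount of 0.1 FPKM. The same calls held with no filter on low values, a minimum of 3 FPKM and the highest row of a symbol, but these settings could change little. Removing the filter cannot undo a call. Itgal, Itgb7 and Itgb8 pass 3 FPKM only through HG+PC-NVs, and Lama2 only through HG+HBS. Of these genes, only Itgal has more than 1 row. The number of lower integrin subunits was 1 (Itgax). It was 2 with a pseudocount of 0.1 FPKM, which added Itga8, and 0 with a minimum of 3 FPKM, which leaves Itgax out. With a fold threshold of 2, 1 integrin subunit was higher (Itgal), 0 were lower and 0 laminin chains were lower, with 305 of all 12109 symbols higher and 105 lower. The median log2 ratio of the integrin subunits ran from 0.07 to 0.17 wherever a filter on low values was kept, and was about 0 without it, when the 8 low members enter. That of the laminin chains ran from -0.12 to -0.05. Of 120 values of single members under the alternatives, 112 stayed within their counting error and 8 moved by more, and 0 called members changed sign. The values that moved include those of called members. The log2 ratio of Itgal was 3.32 with a pseudocount of 0.1 FPKM and 1.49 with its highest row, against 2.31. With that pseudocount, Itgb8 was at 1.33 against 0.99, and Lama2 at -1.39 against -0.97. The 112 include members with 1 row under the highest row of a symbol, whose values cannot move. The median of all symbols shifted by less than 0.1 on the log2 scale in each. No paired analysis was possible because neither condition has a replicate, and none could be left out. Depth limits the members under 3 fragments, which have no usable ratio.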
